A study of Mus musculus with 9 samples.

Results

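The enzymes that write and erase methylation of histone H3 at lysine 9 (H3K9) were examined in the RNA-seq profiles of mouse fetuses exposed to ethanol (EtOH). The 10 genes, out of 27095 loci in the expression table, were listed by name and found by their symbols, and comprise the methyltransferases Ehmt1, Ehmt2, Suv39h1, Suv39h2 and Setdb1 and the demethylases Kdm3a, Kdm3b, Kdm4a, Kdm4b and Kdm4c. They were listed because H3K9 dimethylation was measured in the same model, by a rule with no threshold on expression but with earlier results of these data known. Tissue came from 9 wild type fetuses of strain C57BL/6 in the labels (C57BL/6J in the methods) on gestational day 17, with 3 fetuses in each of 3 groups. The Control group came from dams injected with lactated Ringer's solution on gestational day 7. The EtOH unaffected and EtOH affected groups came from dams given 2.9 g/kg EtOH by intraperitoneal injection on that day, and they differ in whether the fetus showed ocular and cortical patterning defects at collection. By the sample labels the tissue is fetal brain, and by the methods it is cortex. Affected fetuses were thus sorted by their phenotype and not assigned to it, and the sources used here do not tie fetuses to litters.

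H3K9 can carry up to a trimethyl mark, and the mark is best known from silent chromatin. Ehmt1 and Ehmt2 act together as a complex that places mono- and dimethylation in euchromatin. Suv39h1 and Suv39h2 place trimethylation at heterochromatin next to centromeres, and Setdb1 places it at endogenous retroviruses. Kdm3a and Kdm3b remove mono- and dimethylation, while Kdm4a, Kdm4b and Kdm4c remove di- and trimethylation at H3K9 and also act on H3K36. All of these demethylases carry a Jumonji domain that needs oxygen, iron and 2-oxoglutarate, and Kdm3a is a known target of hypoxia-inducible factors. In the developing cortex, loss of the Ehmt1 and Ehmt2 complex and of Setdb1 is known to disturb neuronal gene expression.

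The promoters of 4 members are shown for their place in the comparison with control fetuses. Kdm3a and Kdm4c had the lowest fold changes of the 10, and Kdm4a and Setdb1 had the highest fold changes of the 8 members whose windows were used here. Kdm3b and Kdm4b, which had the highest fold changes of the 10, are not among those 8. The windows run from 250 bases before to 50 bases after a RefSeq transcription start, on the coding strand of GRCm38.p6, and capitals mark the core of the hypoxia response element, searched as ACGTG or GCGTG on either strand. Kdm3a has windows at 3 starts on the minus strand. The most upstream, printed here because it is the only window of the 3 with a match, lies at chr6:71632868-71633167 and holds 1 core, whose first base is 27 bases before the start, while those at chr6:71632637-71632936 and chr6:71609090-71609389 hold 0. Kdm4c has windows at 2 starts on the plus strand, the upstream start at chr4:74242247-74242546 and the downstream start at chr4:74251629-74251928. Kdm4a lies at chr4:118179994-118180293 and Setdb1 at chr3:95357153-95357452, both on the minus strand.
Kdm3a, most upstream start: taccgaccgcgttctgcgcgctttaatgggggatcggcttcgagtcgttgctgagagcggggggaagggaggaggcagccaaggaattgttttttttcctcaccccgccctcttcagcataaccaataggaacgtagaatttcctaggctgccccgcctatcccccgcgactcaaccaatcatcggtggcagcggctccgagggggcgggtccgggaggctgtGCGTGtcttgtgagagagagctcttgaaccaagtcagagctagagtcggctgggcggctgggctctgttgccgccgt
Kdm4c, upstream start: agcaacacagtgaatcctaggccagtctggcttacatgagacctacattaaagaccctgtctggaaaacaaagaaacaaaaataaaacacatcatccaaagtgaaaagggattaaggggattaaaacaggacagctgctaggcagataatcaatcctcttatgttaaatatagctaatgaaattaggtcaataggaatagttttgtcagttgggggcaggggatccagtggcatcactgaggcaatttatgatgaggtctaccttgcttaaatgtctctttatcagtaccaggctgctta
Kdm4c, downstream start: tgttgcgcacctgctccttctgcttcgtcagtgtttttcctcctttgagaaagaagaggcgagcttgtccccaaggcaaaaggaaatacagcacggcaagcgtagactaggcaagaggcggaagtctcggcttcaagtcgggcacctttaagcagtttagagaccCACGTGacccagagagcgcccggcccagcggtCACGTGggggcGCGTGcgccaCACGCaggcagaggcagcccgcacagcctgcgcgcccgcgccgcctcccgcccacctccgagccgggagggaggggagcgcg
Kdm4a: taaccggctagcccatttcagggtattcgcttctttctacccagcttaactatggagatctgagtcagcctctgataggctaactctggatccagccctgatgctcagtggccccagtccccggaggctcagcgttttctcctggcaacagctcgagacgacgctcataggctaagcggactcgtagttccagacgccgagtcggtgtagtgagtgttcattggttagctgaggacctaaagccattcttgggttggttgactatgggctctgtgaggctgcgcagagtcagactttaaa
Setdb1: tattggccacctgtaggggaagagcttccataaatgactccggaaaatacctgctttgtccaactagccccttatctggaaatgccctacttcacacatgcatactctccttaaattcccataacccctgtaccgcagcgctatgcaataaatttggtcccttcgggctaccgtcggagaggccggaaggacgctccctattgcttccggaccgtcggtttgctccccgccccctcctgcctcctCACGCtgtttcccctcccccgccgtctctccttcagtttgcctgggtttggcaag
The window of Kdm4a and the upstream window of Kdm4c hold none of these letters, while the downstream window of Kdm4c holds 6 matches when a palindromic CACGTG is counted on each strand. In Setdb1 the match is on the other strand. Over all 13 RefSeq windows of 8 members, 8 hold a core (61.5%), compared with 43.8% of the 32851 windows in the table, and windows of the same gene are not independent. The member windows are richer in GC, with a median of 64.7% against 52.7% over the table, and every core holds a CG, so that these shares are not compared like with like. A match describes letters only, and binding was not measured here.

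Expression is given as FPKM, a fragment count corrected for exon length and library size, which allows levels to be compared between genes. The table holds 1 FPKM value for each group, which the authors' software took over the 3 fetuses, and no value of a single fetus. The spread between fetuses is therefore unknown, no difference below could be tested against it, and every fold change describes these group values. All 10 members had a mean FPKM of at least 1, the level required of the 15535 loci used as background. Fold changes are log2 ratios of FPKM after adding 0.1, and a limit of 0.32 on that scale, which is 25% higher or the inverse ratio lower, is used to count genes without implying a test. All 3 comparisons share groups with each other and are not independent. In whole tissue, a smaller number of cells of a type and less RNA per cell cannot be told apart.

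The most abundant member was Ehmt2, at 47.8 FPKM in control, 46.6 FPKM in unaffected and 54.5 FPKM in affected fetuses. Kdm4a came next in each group, followed by Ehmt1 and Kdm4b. At the other end, Suv39h2 was the lowest member of each group and Kdm4c the next. The order was the same in the 3 groups except that Setdb1 and Kdm3a exchanged places in unaffected fetuses, and Suv39h1 and Kdm3b in affected fetuses. Ehmt1 and Ehmt2 together supplied 68.0%, 67.4% and 68.4% of the summed methyltransferase FPKM in control, unaffected and affected fetuses, so their share hardly moved. Kdm4a supplied 40.9%, 39.8% and 41.9% of the demethylase sum.

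**Figure D1:**
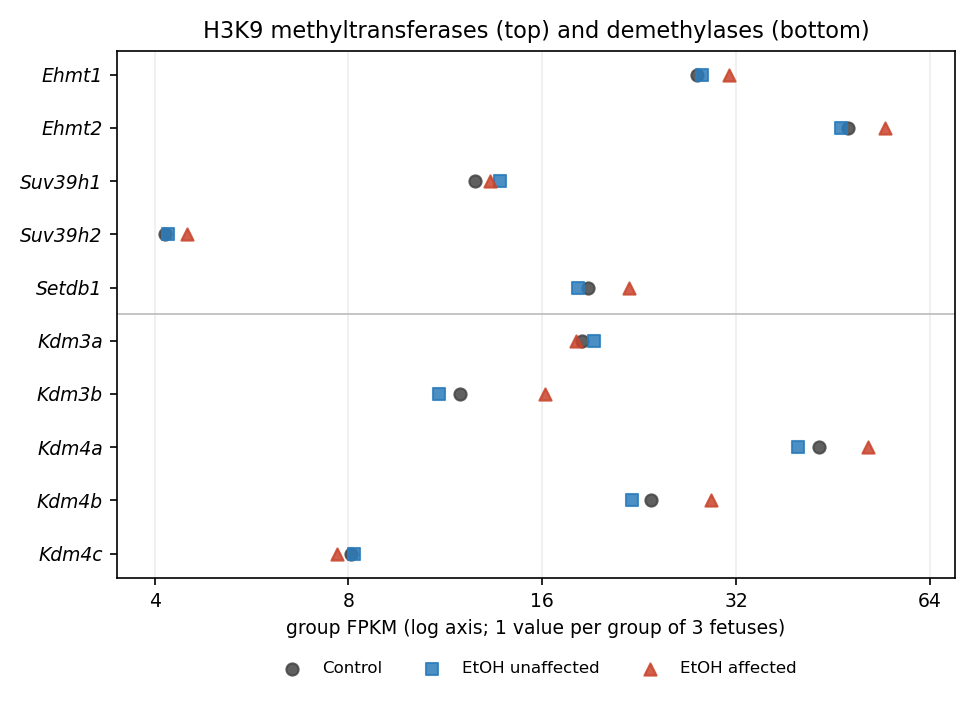
Group FPKM of the 5 methyltransferases and 5 demethylases on a log axis, with 1 point for each group of 3 fetuses and no error bar because no value of a single fetus was used. The affected value is the highest of the 3 groups for 7 genes, and Kdm3b has the widest range, from 11.1 to 16.2 FPKM.

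Among the methyltransferases, Ehmt1 read 27.9 FPKM in control, 28.4 FPKM in unaffected and 31.2 FPKM in affected fetuses. Both Ehmt genes were thus highest in affected fetuses, by 0.16 on the log2 scale over control for Ehmt1 and by 0.19 for Ehmt2. Setdb1, the enzyme that silences endogenous retroviruses, was at 18.8, 18.2 and 21.8 FPKM in the same order. Its difference of 0.21 from control and 0.26 from unaffected fetuses was the highest among the methyltransferases.

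The heterochromatin enzymes differed less between groups. Suv39h1 was at 12.6 FPKM in control, 13.8 FPKM in unaffected and 13.3 FPKM in affected fetuses, so that it was highest in the unaffected group and was the only methyltransferase lower in affected than in unaffected fetuses, by a log2 difference of -0.05. Suv39h2 was at 4.15, 4.20 and 4.49 FPKM. All 5 methyltransferases were above control in affected fetuses, with log2 differences from 0.08 to 0.21. So were 52.9% of all loci, and 77.0% of those with a transcript of at least 4000 nt. None of the 5 reached the limit of 0.32 in any of the 3 comparisons. Of all loci, 12.1% passed it higher and 11.3% lower for affected against control fetuses. The shares were 20.3% and 18.1% for affected against unaffected fetuses, and 5.45% and 6.77% for unaffected against control fetuses.

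Among the demethylases, Kdm3b stood furthest from the other groups. It read 11.9 FPKM in control, 11.1 FPKM in unaffected and 16.2 FPKM in affected fetuses. Its affected value was 35.4% above control and 46.3% above unaffected fetuses, the largest differences of any member. Kdm3a, its closest relative among the members, was nearly level at 18.5, 19.2 and 18.1 FPKM, and 91.7% of loci lay at least as far from control as its affected value did. The ratio of Kdm3a to Kdm3b came to 1.55 in control fetuses, 1.74 in unaffected fetuses and 1.12 in affected fetuses.

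In the Kdm4 family, Kdm4a was at 43.0 FPKM in control, 39.9 FPKM in unaffected and 51.2 FPKM in affected fetuses. Kdm4b was at 23.6, 22.1 and 29.2 FPKM. Both were lowest in unaffected and highest in affected fetuses, with log2 differences from control of 0.25 for Kdm4a and 0.31 for Kdm4b in the affected group. Kdm4c was nearly level, at 8.08, 8.16 and 7.67 FPKM, and 78.7% of loci lay at least as far from control as its affected value did. The ratio of Kdm4a to Kdm4c came to 5.32 in control fetuses, 4.89 in unaffected fetuses and 6.68 in affected fetuses.

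Summed over the 5 genes, the methyltransferases came to 111 FPKM in control, 111 FPKM in unaffected and 125 FPKM in affected fetuses. The demethylases summed to 105, 100.4 and 122 FPKM. The affected sums were 12.7% above control for the methyltransferases and 16.4% above control for the demethylases. Both sums are carried by a few genes, and 2 of the 5 demethylases were below control. The sum of the writers over that of the erasers came to 1.06 in control fetuses, 1.11 in unaffected fetuses and 1.02 in affected fetuses.

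Against control, 8 of the 10 members were higher in affected fetuses, compared with 52.9% of all loci, and 1, Kdm3b, was past the limit of 0.32 higher. That share of 10% lies near the 12.1% of all loci past the same limit. No member was past it lower, where 11.3% of loci were. Kdm4b, at 0.31, lay just short of the limit. The median over the members was 0.18, compared with 0.02 over all loci.

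Compared with unaffected fetuses, 7 members were higher in affected fetuses, compared with 51.2% of all loci, and 3, Kdm3b, Kdm4b and Kdm4a, passed the limit, with log2 differences of 0.54, 0.40 and 0.36. These 3 genes are 30% of the members, against 20.3% of all loci, and no member was past it in the lower direction, against 18.1% of loci. Suv39h1, Kdm3a and Kdm4c were lower, at -0.05, -0.09 and -0.09. The member median was again 0.18, and that of all loci 0.01. With the limit set at 1.5-fold, 0 members were past it higher against control and 0 against unaffected fetuses, compared with 3.42% and 6.86% of loci. At 1.1-fold, 6 and 6 members were past it, compared with 33.1% and 36.9% of loci.

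Between unaffected and control fetuses the members split evenly, with 5 higher and 5 lower and a median of -0.01. None passed the limit, which 5.45% of loci did in the higher and 6.77% in the lower direction. The values ran from -0.11 for Kdm3b to 0.13 for Suv39h1. Kdm3b, Kdm4a and Kdm4b, the members with the largest differences in affected fetuses, were the lowest members here, which raised their difference between affected and unaffected fetuses above that between affected and control fetuses.

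**Figure D2:**
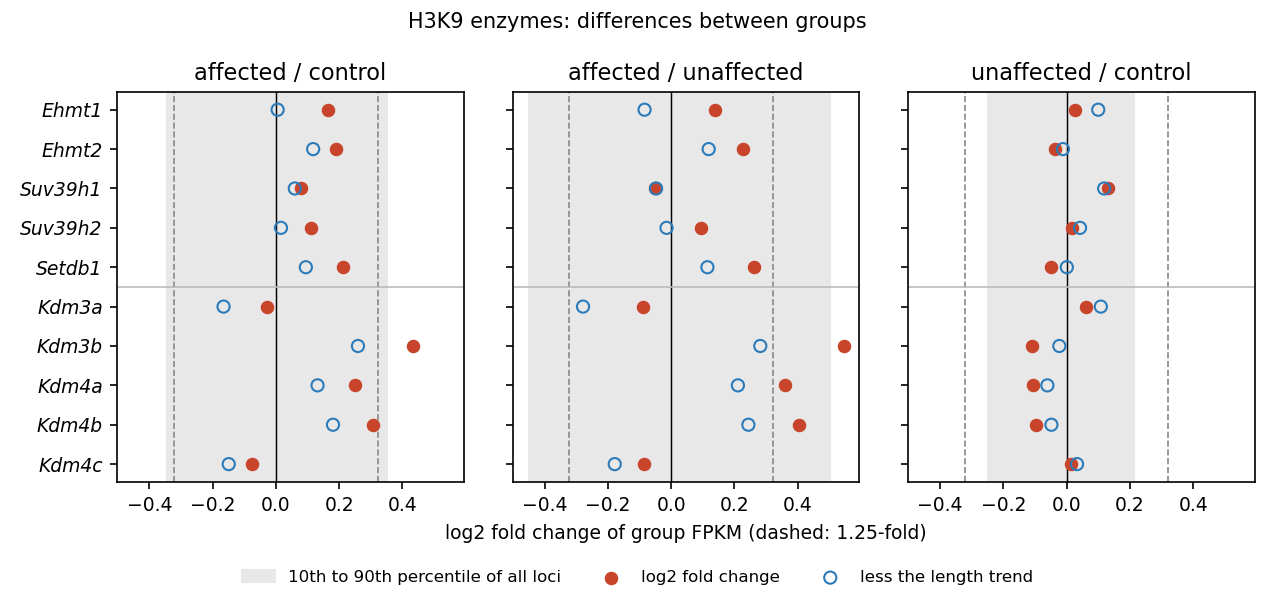
Log2 fold change of group FPKM for each member in the 3 comparisons (filled), the same after subtraction of the median of loci of like transcript length (open), and the 10th to 90th percentile of 15535 loci (grey band). Kdm3b lies beyond the band in both comparisons with affected fetuses and inside the limit of 0.32 (dashed) once the length trend is subtracted.

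Transcript length moved with the fold change across the whole table, and the members are long. Over 12547 loci with a length in the GENCODE M21 annotation, Spearman's rho between length and log2 fold change was 0.55 for affected against control, 0.62 for affected against unaffected and -0.51 for unaffected against control fetuses. These correlations are across genes, which are not independent replicates and share the same libraries. The longest transcripts of the members range from 3116 nt in Suv39h1 to 6363 nt in Kdm3b, and 9 of 10 exceed the median of 3178 nt. Among the 4431 loci of at least 4000 nt, 77.0% were higher in affected than in control fetuses and 17.1% passed the limit of 0.32, while 7 of the 9 members of that length were higher and 1 passed. Against unaffected fetuses, 78.6% of those loci were higher and 36.6% passed the limit, while 7 of those 9 members were higher and 3 passed. The part of length in the members' differences, and in the ratios between members and the sums given above, was not tested.

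After the median of the loci nearest in length was subtracted, no member passed 0.32 in any comparison. Of the loci after the same subtraction, 4.08% passed it higher and 6.11% lower for affected against control, 8.67% and 9.55% for affected against unaffected, and 1.63% and 1.58% for unaffected against control fetuses, so that a count of 0 among 10 genes lies near this background. The member medians became 0.08 for affected against control, 0.05 for affected against unaffected and 0.02 for unaffected against control fetuses. Kdm3b kept the highest value, at 0.26 over control and 0.28 over unaffected fetuses, and Kdm4b stood at 0.18 and 0.24. Ehmt1 came to 0.01 over control and turned from 0.14 to -0.08 against unaffected fetuses, and Suv39h2 came to 0.02 and turned from 0.10 to -0.01. The methyltransferase median became 0.06 over control, with 5 of 5 above 0, and -0.01 against unaffected fetuses, with 2 of 5 above 0. Of all 10 members, 8 stayed above 0 against control and 5 were above 0 against unaffected fetuses. Kdm3a, a demethylase of mono- and dimethylated H3K9, came to -0.17 against control and -0.28 against unaffected fetuses, and Kdm4c to -0.15 and -0.18, so that both lay further below loci of their length than below 0. Neither passed the limit.

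**Figure D3:**
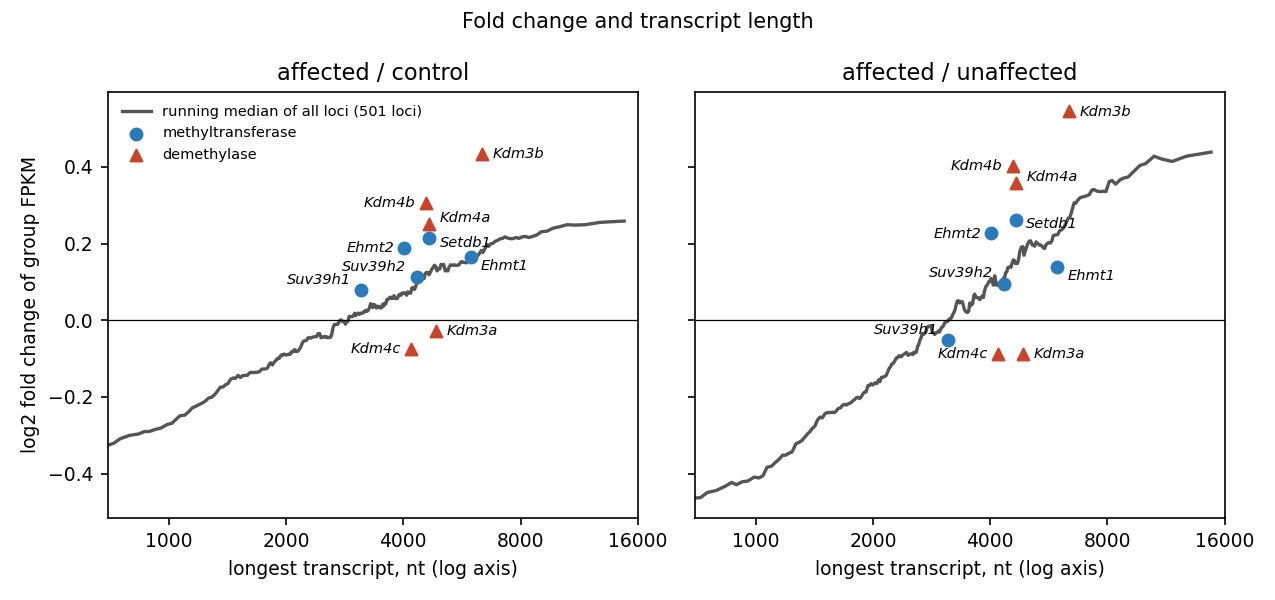
Log2 fold change of group FPKM in affected fetuses against the longest GENCODE transcript of each member (log axis), with the running median of all loci as a line. Kdm3b, Kdm4a and Kdm4b lie above the line and Kdm3a and Kdm4c below it in both panels.

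Partners, readers and further enzymes of the same mark were counted from lists of known genes. The background for these counts is that 12.1% of all loci were past the limit higher and 11.3% lower against control, and 20.3% and 18.1% against unaffected fetuses, with 17.1% and 36.6% higher among loci of at least 4000 nt. Of 14 partners of the methyltransferases that reached a mean FPKM of 1, 2 were past the 0.32 limit higher in affected than in control fetuses and 3 than in unaffected fetuses, or 14.3% and 21.4%, close to the shares of all loci. Their medians were 0.15 and 0.23, or 0.10 and 0.09 after the length trend was subtracted. Atf7ip, which stabilises Setdb1 in the nucleus, was at 27.3 FPKM in control, 24.0 FPKM in unaffected and 37.9 FPKM in affected fetuses. Trim28, the scaffold that brings Setdb1 to chromatin, was at 107, 102 and 125 FPKM. The other partners past the limit were Uhrf1 against control (0.37) and, against unaffected fetuses, Zfp518b (0.34) and the locus that the table gives jointly to Wiz and Akap8l (0.37), whose reads cannot be assigned to either gene. Among 8 readers of the mark, 1, again Uhrf1, passed the limit against control and 0 against unaffected fetuses, and the heterochromatin protein gene Cbx5 was at 35.8, 34.2 and 39.2 FPKM. Its more abundant relatives were instead lowest in affected fetuses, with Cbx1 at 91.0, 99.6 and 88.3 FPKM and Cbx3 at 231, 233 and 225 FPKM.

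Of 10 further genes of H3K9 methyltransferases and demethylases at that level, 5 were past the limit higher against each of the other groups and none was past it lower, which is 50% in each comparison against 12.1% and 20.3% of all loci and 17.1% and 36.6% of those of at least 4000 nt. Their median length is 5983 nt and their medians were 0.26 and 0.33. Prdm16, a zinc finger regulator of radial glia, was at 3.25 FPKM in control, 3.03 FPKM in unaffected and 4.67 FPKM in affected fetuses. Prdm2 was at 12.0, 10.8 and 16.1 FPKM, and the Jumonji gene Phf2 at 20.5, 19.0 and 27.3 FPKM. Hr, a demethylase of the Kdm3 family, was at 1.70, 1.34 and 2.19 FPKM. Phf8 was the fifth of these genes, with 0.33 over control and 0.35 over unaffected fetuses. Jmjd1c, also of the Kdm3 family, was at 7.83, 7.16 and 8.95 FPKM. Kdm1a, a flavin-dependent demethylase without a Jumonji domain, was nearly level at 95.2, 96.8 and 95.8 FPKM. After subtraction of the length trend the medians of these 10 genes were 0.15 and 0.16, and genes past the limit were not counted again.

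Enzymes of other histone lysines showed larger medians than the set of all 10 members and are longer. For 16 other methyltransferases with a median length of 7786 nt, the median log2 difference was 0.29 against control and 0.52 against unaffected fetuses, and 6 and 12 of them passed the limit higher, or 37.5% and 75%, against 17.1% and 36.6% of loci of at least 4000 nt. Subtracting the length trend brought these medians to 0.08 and 0.13, the first close to that of the members. Setd1a, an H3K4 methyltransferase, was at 8.66 FPKM in control, 7.43 FPKM in unaffected and 11.5 FPKM in affected fetuses. Its relative Setd1b was at 8.43, 7.10 and 11.1 FPKM. Nsd1, an H3K36 methyltransferase, was at 11.8, 10.1 and 15.1 FPKM, and the SET domain gene Mll5 at 28.5, 23.5 and 36.7 FPKM. For 8 other demethylases the medians were 0.25 and 0.50, or 0.09 and 0.16 after the subtraction, and 3 and 5 genes passed the limit, or 37.5% and 62.5%, against the same 17.1% and 36.6%. The 5 member demethylases had medians of 0.25 and 0.36, or 0.13 and 0.21 after the subtraction. Against control this matched the other demethylases, and after the subtraction both values were higher than theirs. The 5 member methyltransferases lay below the other methyltransferases, at 0.16 and 0.14, or 0.06 and -0.01 after the subtraction. Among the other demethylases, Kdm5b, which acts on H3K4, was at 30.8, 26.1 and 38.7 FPKM. Kdm6b, which acts on H3K27, was at 22.2, 18.4 and 28.9 FPKM. Kdm5c passed the limit in both comparisons too, and Kdm2a and Kdm6a against unaffected fetuses only.

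**Figure D4:**
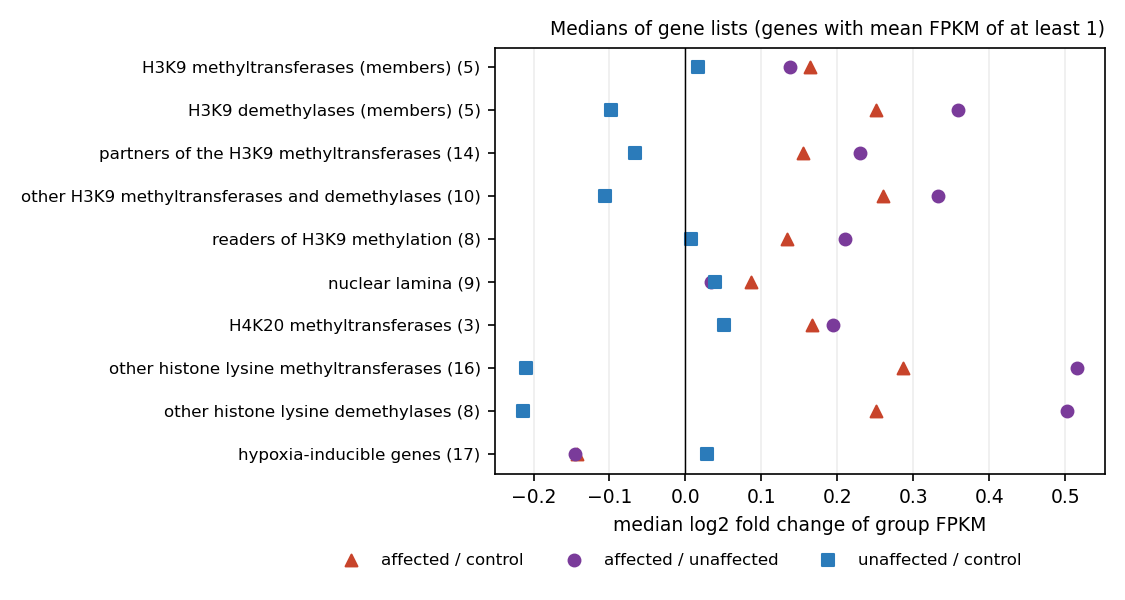
Median log2 fold change of group FPKM for the members and for lists of related genes, with the number of genes at a mean FPKM of at least 1 in parentheses. The other histone lysine methyltransferases and demethylases lie at 0.52 and 0.50 for affected against unaffected fetuses, further from 0 than either set of H3K9 members, and the hypoxia-inducible genes lie below 0 for both comparisons with affected fetuses.

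Kdm3a was also set beside other hypoxia-inducible genes. Of 17 such genes, 1 was past the limit higher and 2 lower in affected than in control fetuses, with a median of -0.14, where 12.1% and 11.3% of all loci were. Against unaffected fetuses 2 were higher and 6 lower, with a median of -0.15, where 20.3% and 18.1% of loci were. Ankrd37 was at 9.28 FPKM in control, 10.8 FPKM in unaffected and 5.42 FPKM in affected fetuses. Bnip3, a gene of mitophagy, was at 33.3, 36.5 and 25.8 FPKM, whereas the glycolytic gene Hk2 was at 1.35, 1.31 and 1.87 FPKM. Pfkfb3, also of glycolysis, was the other gene past the limit higher against unaffected fetuses, at 0.39. Kdm3a was at -0.03 and -0.09, closer to 0 than both medians. These genes have a median length of 2889 nt, and after the subtraction of the length trend their medians were -0.05 and -0.13, while Kdm3a was at -0.17 and -0.28, further from 0 than both.

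The groups differed in the RNA of genes that mark sex. Xist, expressed from the inactive X chromosome of females, was at 9.24 FPKM in control, 0.02 FPKM in unaffected and 10.3 FPKM in affected fetuses. The Y-linked gene Eif2s3y was at 6.56, 21.01 and 0.04 FPKM, and Ddx3y at 2.66, 8.40 and 0.01 FPKM. Unaffected fetuses thus had almost no Xist and affected fetuses almost no RNA of these Y-linked genes, while control fetuses had both. The group values therefore read as male for unaffected, female for affected and mixed for control fetuses. Sex cannot be told apart from the phenotype in the comparison of affected with unaffected fetuses. The mix of sexes also differs from control in both EtOH groups. Suv39h1 is the only X-linked member.

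Markers of cortical projection neurons were present, and all 7 were above control in affected fetuses, with a summed level of 754 FPKM in control, 664 FPKM in unaffected and 852 FPKM in affected fetuses. All 7 were also above unaffected fetuses, with a median of 0.53, or 0.51 less the length trend, and 6 of them passed the limit, where 20.3% of loci did. Bcl11b was at 32.7, 28.2 and 45.5 FPKM and Tbr1 at 75.7, 62.1 and 98.3 FPKM. Both were lowest in unaffected fetuses, as were 5 of the 10 members. Of loci of at least 4000 nt, 28.2% were higher in unaffected than in control fetuses. The 9 progenitor markers summed to 2493, 2650 and 1896 FPKM, a sum carried by Fabp7 at 2015, 2151 and 1352 FPKM. Of these 9 markers, 6 were above control in affected fetuses, with a list median of 0.21, and Nes was at 26.8, 27.3 and 36.1 FPKM. Against unaffected fetuses 4 of the 9 were higher, with a median of -0.05. Less the length trend, the progenitor medians were 0.26 against control and 0.17 against unaffected fetuses. The 8 markers of dividing cells summed to 300.3, 347 and 310.4 FPKM, and the 8 of ventral telencephalon to 181, 214 and 195 FPKM. The 6 red blood cell loci summed to 5615, 7260 and 3488 FPKM. Endothelial markers (6 genes) summed to 62.9, 62.8 and 67.4 FPKM, but 5 of the 6 were higher in affected fetuses in both comparisons. Their medians were 0.31 and 0.44, or 0.24 and 0.28 less the length trend. The limit was passed by 3 and 4 of them, where 12.1% and 20.3% of all loci did. Of loci of at least 4000 nt, 17.1% and 36.6% did, but some of these markers are shorter. The most abundant of them, Cldn5, went the other way at 36.9, 38.4 and 33.9 FPKM. Meningeal markers (5 genes) summed to 85.1, 78.3 and 75.6 FPKM, choroid plexus markers (5 genes) to 991, 1315 and 1104 FPKM and microglial markers (5 genes) to 46.5, 47.9 and 38.9 FPKM. The 4 thalamic markers summed to 8.21, 6.53 and 6.91 FPKM. Of the markers at a mean FPKM of at least 1, those above control in affected fetuses numbered 6 of 8 for dividing cells, 5 of 8 for ventral telencephalon, 2 of 5 for red blood cells, 2 of 5 for meninges, 4 of 4 for choroid plexus, 1 of 5 for microglia and 1 of 2 for thalamus. Above unaffected fetuses there were 3 of 8, 1 of 8, 0 of 5, 3 of 5, 2 of 4, 2 of 5 and 2 of 2 in the same order. The medians in that comparison were -0.09, -0.18, -0.68, 0.04, -0.06, -0.38 and 0.23 in that order. Less the length trend, they were -0.05, -0.26, -0.33, -0.13, 0.13, -0.01 and 0.19. No marker in these lists was listed at 0, and the part of cell composition in the members' values was not tested.

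In mm10, Ehmt1 lies at chr2:24790768-24919642, Ehmt2 at chr17:34898409-34914051, Suv39h1 at chrX:8061171-8074760, Suv39h2 at chr2:3424131-3474986 and Setdb1 at chr3:95315252-95357202, as the table gives each locus. The spans given for Suv39h2 and Setdb1 are shared with the loci of their neighbours Dclre1c and Cers2, while in GENCODE M21 the genes themselves begin at 3455815 and 95323525. The demethylase loci are Kdm3a at chr6:71588972-71633382, Kdm3b at chr18:34776994-34839370, Kdm4a at chr4:118137004-118180043, Kdm4b at chr17:56326050-56407326 and Kdm4c at chr4:74242497-74405864. Levels of 5 members carry an uncertainty from overlapping genes. For 4 of them the overlapping genes are on the other strand, and the sources used here do not say that reads were counted by strand. In GENCODE M21, 24.6% of the exonic bases of Kdm3b are shared with the antisense gene Gm26538, which bears on the member with the largest difference. The shares are 14.6% for Suv39h1 with Gm14820, 9.98% for Suv39h2, mostly with its neighbour Dclre1c, 4.73% for Setdb1, mostly with Cers2, and 0.26% for Ehmt1, whose overlapping gene is on the same strand. Dclre1c was at 2.19, 2.12 and 1.76 FPKM and Cers2 at 19.9, 21.5 and 17.9 FPKM. No value was found for Gm26538 or Gm14820, and the part of overlapping reads in the members' levels was not tested. Kdm3a, Kdm4a, Kdm4b, Kdm4c and Ehmt2 share no exonic base with another gene.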

How the data were processed

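Libraries were made with the Illumina TruSeq kit and aligned by the authors to mm10, where the methods name STAR and also Bowtie with TopHat. The submitters' processing notes list Bowtie2 2.2.4.0, Cufflinks and Cuffdiff. The deposited table gives FPKM, which the authors computed with the Cufflinks suite, as 1 value per locus and group. It holds 0 columns for single fetuses, and library depth was not given in the sources used here, so no error, interval or test was computed. The table's columns with the authors' fold changes, test statistics, p-values and q-values were not used.

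The members and gene lists were chosen with earlier results of these data known. Symbols were matched to the gene column split on commas, otherwise to a RefSeq synonym. Log2 ratios used a pseudocount of 0.1 FPKM (Python 3.11.15, pandas 2.3.3), and the background was 15535 loci with a mean FPKM of at least 1, leaving out 18 loci that the table marks as failed or overflowing. Genes outside the members are named if past 1.25-fold in the same direction against both other groups, at most 4 a list, plus Kdm1a, Trim28, Cbx5 and Jmjd1c whatever their values, and not all of them are printed. A further gene of this rule is not reported here. Dclre1c and Cers2 are named for their overlap, and Xist, Uhrf1, Wiz, Akap8l, Zfp518b, Cldn5, Phf8, Pfkfb3, Kdm2a, Kdm6a, Cbx1, Cbx3 and Banf1 were chosen after their values were seen.

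Transcript length was the longest GENCODE M21 basic transcript, and a running median over 501 loci was subtracted. With loci of 1 gene name, lengths covered 12322 loci (79.3%). After that was seen, loci with joined names were given the longest length of their names, which raised coverage to 12547 loci (80.8%). This procedure was tested on simulated data. Several other promoter letter patterns were looked at before the hypoxia core was kept, and that pattern and the promoters printed were chosen after values were seen. Alternatives covered the pseudocount, scaling, length, the fold, the filter and each member left out.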

Additional observations from a re-analysis of the deposited data

How the results depend on the processing

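Single members kept their direction and their side of the limit of 0.32 in all 30 values without a pseudocount, with a pseudocount of 1 FPKM, after centring on the median of all loci and after scaling to a common upper quartile. Subtracting the length trend moved 14 of 30 by over 0.1 on the log2 scale, a tolerance chosen after the data were seen in place of a replicate spread, with 4 crossing the limit and 3 changing sign (Ehmt1 and Suv39h2 in affected against unaffected and Setdb1 in unaffected against control fetuses). It left 0 members past the limit for affected against control and 0 against unaffected fetuses, with a median of 0.0497 for the latter. With lengths from loci of 1 gene name only, an alternative added after the data were seen, the counts were again 0 and 0 and the medians 0.0753 against control and 0.0470 against unaffected fetuses. The first of these lies just over 0.1 from the reported median. The joined-name lengths, themselves adopted after the coverage was seen, gave 0.0775, which is just under 0.1 from that median. At 1.5-fold 0 and 0 members passed higher, and at 1.1-fold 6 and 6. Leaving out each member in turn gave medians of 0.16 to 0.19, 0.14 to 0.23 and -0.04 to 0.01 in the comparisons of affected with control, affected with unaffected and unaffected with control fetuses. With a filter at 5 FPKM, 2.69% and 2.96% of loci passed the limit higher and lower in unaffected against control fetuses. No paired analysis was possible because the table holds no values of single fetuses, and for the same reason no replicate could be left out. With 3 fetuses in each group and no spread, the precision of the group values is unknown.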

Other observations

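Histone demethylases with copies on both sex chromosomes showed wide differences between the groups. Kdm5d, the Y-linked demethylase of H3K4, was at 1.67 FPKM in control and 5.45 FPKM in unaffected fetuses and at 0.0018 FPKM in affected fetuses. Its X-linked counterpart Kdm5c was at 16.6, 12.8 and 21.6 FPKM in the same order. Uty, the Y-linked relative of the H3K27 demethylase Kdm6a, was at 1.06 and 3.63 FPKM in control and unaffected fetuses and was listed at 0 in affected fetuses, while Kdm6a was at 6.60, 5.31 and 7.70 FPKM. The X-linked H3K9 demethylase Phf8, which has no Y-linked copy, was at 6.97, 6.88 and 8.78 FPKM. Sex and phenotype cannot be told apart for these genes.

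Genes of the nuclear lamina, to which H3K9-methylated chromatin is tethered, ran from -0.27 to 0.26 in affected against control fetuses, with a median log2 difference of 0.09 and 0 of 9 past the limit of 0.32 higher and 0 lower, where 12.1% and 11.3% of loci were. Against unaffected fetuses 1 of the 9, Banf1, was past the limit lower at -0.41, where 18.1% of loci were, with a list median of 0.03. The longest transcript of Banf1 has 1261 nt, and the running median of loci near that length was -0.32 in this comparison. The 3 loci of H4K20 methyltransferases, whose mark often accompanies H3K9 trimethylation, had medians of 0.17 against control and 0.19 against unaffected fetuses. Less the length trend, these were 0.10 and 0.07. None of the 3 passed the limit, where 12.1% and 20.3% of all loci passed it higher and 11.3% and 18.1% lower.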
